A study of Mus musculus with 9 samples.

Results

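The mouse genes Lmx1b, Nkx2-1, Emx2, Neurod2, Hand2, Nr2e1, Tbx15 and Wnt1 lie in broad domains of H3K27me3 in embryonic stem cells, and 6 of these 8 loci kept at least 1 listed H3K27me3 site after depletion of Phf19, against 8.96% of all control H3K27me3 sites and 82.1% of the other control sites of at least 10 kb. The loci are 8 fixed windows of 70 to 120 kb in the mouse build mm9, placed around genes that control development, and the gene names were attached to them without an mm9 annotation. They were chosen from the deposited site lists for the great width of their H3K27me3 and for whether they stayed listed, so that split and the widths of the domains are a description and are not tested. The windows held 166 of the 22147 sites in the 4 lists, namely 61 of 4633 Phf19 sites, 52 of 8054 Suz12 sites, 24 of 8280 H3K27me3 sites from control cells and 29 of 1180 H3K27me3 sites from depleted cells.

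The sites come from chromatin immunoprecipitation and sequencing in a mouse embryonic stem cell line, E14Tg2A, kept without feeder cells in medium with serum and leukemia inhibitory factor. Phf19 (2 replicates, reduced to the sites present in both) and Suz12 (1 library) were profiled in wild-type cells. H3K27me3 was profiled in cells with a random hairpin, labelled shRd, and in cells labelled shPhf19 that were depleted of Phf19, with 1 library each. Neither the degree of depletion, the number of hairpins nor any cloning of the cells is stated in the labels. The lists hold positions and no expression, so the cell type was not checked against marker genes. The labels give the H3K27me3 antibody the catalogue number 07449 for shRd and 07450 for shPhf19, and the part of this difference in the results was not tested. Read depth is unknown, since the lists carry no counts, heights or scores.

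Polycomb repressive complex 2 (PRC2) adds methyl groups to lysine 27 of histone H3, and the trimethylated form, H3K27me3, marks silenced genes. Suz12 is a core subunit of the complex, and Phf19 is a Polycomb-like partner that reads methylated lysine 36 of the same histone. In embryonic stem cells the complex is known for covering the genes of developmental regulators, many of which have promoters rich in CG dinucleotides (CpG). Such genes are kept off in pluripotent cells and are switched on in particular lineages later.

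RefSeq promoter windows were matched for 7 of the 8 genes by symbol. The table has no entry for Tbx15. In the 250 bases upstream of the gene start, all 7 held more CG dinucleotides than the median of 6 in 32851 promoter windows. Nr2e1, Hand2, Neurod2 and Nkx2-1 were below the upper quartile of 16. Emx2 had 24, Wnt1 23, Lmx1b 19, Nr2e1 15, Hand2 15, Neurod2 11 and Nkx2-1 9. The share of all promoters with at least as many was 11.98% for Emx2, 19.7% for Lmx1b and 40.3% for Nkx2-1. Their upstream sequences are shown because Lmx1b kept the largest listed share of its domain, Emx2 kept none, and Nkx2-1 differed from the other listed loci in where the listed sites lay. They are from RefSeq on GRCm38.p6, read 5′ to 3′ on the gene's strand, with each CG in capitals, at chr2:33641099-33641348 (minus strand), chr12:56536909-56537158 (minus strand) and chr19:59458440-59458689 (plus strand).
Lmx1b: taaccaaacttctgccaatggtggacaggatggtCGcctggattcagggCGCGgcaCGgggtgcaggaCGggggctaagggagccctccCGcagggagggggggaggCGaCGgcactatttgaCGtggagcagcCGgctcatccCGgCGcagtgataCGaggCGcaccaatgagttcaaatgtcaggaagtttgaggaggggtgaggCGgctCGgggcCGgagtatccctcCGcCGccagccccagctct
Nkx2-1: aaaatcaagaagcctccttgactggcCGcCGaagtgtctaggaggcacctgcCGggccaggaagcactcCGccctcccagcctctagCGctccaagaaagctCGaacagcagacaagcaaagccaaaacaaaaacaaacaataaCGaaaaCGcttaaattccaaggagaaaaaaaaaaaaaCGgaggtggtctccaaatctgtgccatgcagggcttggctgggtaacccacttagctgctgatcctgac
Emx2: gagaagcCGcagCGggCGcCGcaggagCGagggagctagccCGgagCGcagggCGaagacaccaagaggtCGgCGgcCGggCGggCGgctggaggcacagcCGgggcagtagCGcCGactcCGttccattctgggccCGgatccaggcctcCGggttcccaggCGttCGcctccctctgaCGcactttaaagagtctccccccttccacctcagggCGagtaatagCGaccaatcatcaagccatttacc
The upstream sequence of Emx2, which lost its listed sites, held 24 CG, against 9 to 23 at the 6 matched loci that kept them. Tbx15, the other unlisted locus, had no entry, so a difference between listed and unlisted loci was not tested. The site lists are on mm9 and these sequences on GRCm38.p6, so no site was placed on a promoter, exon or intron.

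In control cells each window contained 1 H3K27me3 site of 23.3 to 28.6 kb, called the domain of the locus below. These 8 domains ranked between 7 and 15 in width among all 8280 control sites. Suz12 sites covered 52.6% to 75.2% of each domain (median 56.99%), and Phf19 sites covered 15.01% to 53.7% (median 21.0%). Both medians were below those of the 161 other control sites of at least 10 kb with Phf19, at 66.1% and 28.8%. Those sites had a median width of 13995 bp. All 52 Phf19 sites in the domains overlapped a Suz12 site. Over the whole windows 93.4% of the Phf19 sites overlapped Suz12 (95% exact interval 84.1 to 98.2), against 73.3% of the entire list. Of the 52 Suz12 sites in the windows, 51.9% (37.6 to 66.0) overlapped Phf19, against 23.9% of the entire list. Control H3K27me3 overlapped 59 of the 61 Phf19 sites and 50 of the 52 Suz12 sites, or 96.7% and 96.2%, against 72.2% and 70.7% of the entire lists. The windows were placed on H3K27me3 domains, so the high shares on control H3K27me3 largely follow from the choice of loci. Whether the overlap of Phf19 with Suz12 differs from the entire lists apart from that choice was not tested. Phf19 sites of the windows had a median width of 653 bp, and those of the entire list 461 bp. Intervals here cover counting error only, and sites of 1 locus share their chromatin.

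**Figure D1:**
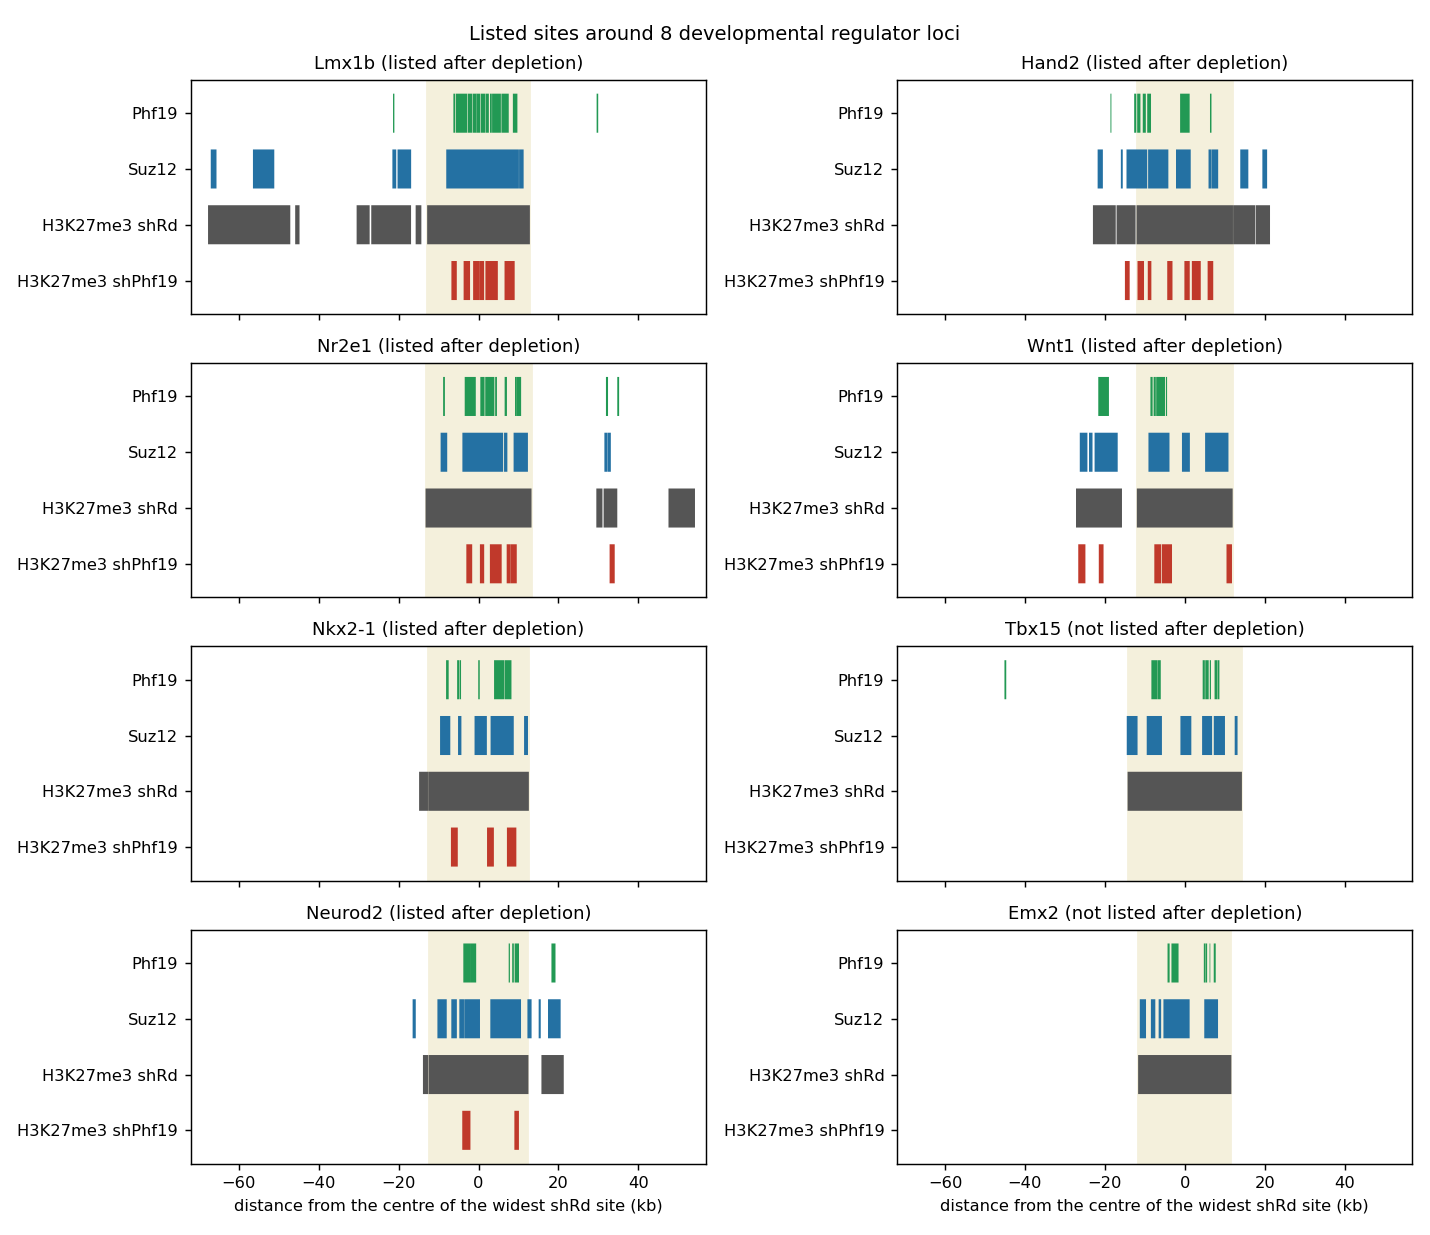
Listed sites in the 8 windows, 1 panel per locus. The horizontal axis is the distance in kb from the centre of the widest shRd H3K27me3 site (shaded), and each bar is 1 site of the Phf19, Suz12, shRd or shPhf19 list. Tbx15 and Emx2 have no bar in the shPhf19 row, and the other 6 loci have 2 to 7.

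After depletion 6 of the 8 domains overlapped a listed H3K27me3 site. Over the whole control list this was the case for 8.96% of sites, and among the 179 control sites of at least 10 kb outside the windows for 82.1% (75.7 to 87.4). Of those with Phf19, 86.3% stayed listed, and of the 18 without it 44.4%. Staying listed was thus the usual state of a control site of at least 10 kb. At 20 kb or more, the width class of the domains, 18 of 21 other sites stayed listed. With Phf19 this was 18 of 18. In bulk chromatin, fewer cells with the mark and less of the mark per cell cannot be told apart, and a site under the peak threshold is not listed. Each condition is 1 library, so the split has no replicate check. In the 6 listed domains, shPhf19 sites covered 42.7 of 151 kb, or 28.4%.

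Lmx1b, Nkx2-1 and Emx2 encode homeodomain transcription factors. Lmx1b acts in dorsal limb patterning and in midbrain and hindbrain neurons. Its domain (chromosome 2, 33478474 to 33504191, 25.7 kb) was covered by Suz12 over 19.3 kb, mostly by 1 site of 18.2 kb, and by 11 Phf19 sites over 13.8 kb. After depletion 6 sites covered 11.3 kb, or 44.1%, the largest share of the 8 loci. All 11 Phf19 sites of the domain overlapped one of them, and all 6 lay on Phf19. The longest gap between neighbouring Phf19 sites was 1.03 kb. The first shPhf19 site, at 33484545 to 33485894, began before the first Phf19 site of the domain at 33485044, and the others lay within the stretch that the Phf19 sites span. None of it fell on bases without Suz12 and Phf19, of which the domain held 6.39 kb.

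Nkx2-1 directs thyroid, lung and ventral forebrain development. Its domain (chromosome 12, 57617414 to 57642617, 25.2 kb) held 5 Suz12 sites over 13.3 kb and 6 Phf19 sites over 6.14 kb. After depletion 3 sites covered 5.79 kb, or 23.0%. They overlapped 2 of the 6 Phf19 sites. The widest Phf19 site of the locus, at 57633906 to 57636526 (2.62 kb), was not among these: the nearest shPhf19 site ended 47 bp before it. The shPhf19 site at 57623107 to 57624824 overlapped no Suz12 site and had 9.49% of its length on Phf19.

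Emx2 acts in the developing cerebral cortex and urogenital tract. Its domain (chromosome 19, 59524965 to 59548307, 23.3 kb) was the narrowest of the 8. It held 5 Suz12 sites over 13.3 kb and 6 Phf19 sites over 3.74 kb, and no site was listed anywhere in the window after depletion. The Phf19 sites formed 2 groups, 1 of them at 59532327 to 59535082 and the other at 59541412 to 59544393, separated by 6.33 kb. The Suz12 length equalled that of Nkx2-1 to the 3 digits given, although Nkx2-1 kept 3 listed sites.

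Neurod2 and Hand2 encode basic helix-loop-helix factors, the former of maturing excitatory neurons and the latter of the heart, limb bud and sympathetic neurons. The domain of Neurod2 (chromosome 11, 98178859 to 98203861, 25.002 kb) had 6 Suz12 sites over 16.8 kb and 5 Phf19 sites over 5.02 kb. It kept 2 sites over 3.19 kb, or 12.7%, the smallest share of the listed loci. Each of these 2 sites lay on 1 Phf19 site and nearly filled it. They covered 93.1% of the Phf19 site at 98187554 to 98189468 and 98.4% of that at 98200400 to 98201491. The remaining 3 Phf19 sites of the domain were not touched.

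At Hand2 the domain (chromosome 8, 59800563 to 59824706, 24.1 kb) had 5 Suz12 sites over 13.8 kb and 5 Phf19 sites over 5.28 kb. It kept 6 sites over 8.81 kb, or 36.5%. All 5 Phf19 sites were overlapped, and 4 of the 6 shPhf19 sites lay on Phf19. The site at 59814411 to 59816641 (2.23 kb) was the widest shPhf19 site of the locus and overlapped neither Phf19 nor Suz12, the only such site among the 29 of the windows. The listed length exceeded the Phf19 length here and at Wnt1, and was below it at the other 4 listed loci.

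Nr2e1 encodes an orphan nuclear receptor of neural stem cells. Its domain (chromosome 10, 42287973 to 42314501, 26.5 kb) had 4 Suz12 sites over 16.3 kb and 8 Phf19 sites over 9.11 kb. It kept 5 sites over 7.99 kb, or 30.1%. All 5 overlapped Phf19, and 6 of the 8 Phf19 sites were overlapped. The shPhf19 sites at 42308285 to 42309302 and 42309328 to 42310809 had only 6.59% and 29.6% of their length on Phf19. The listed sites lay between 10.2 kb from the start of the domain and 3.69 kb from its end.

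Tbx15 encodes a T-box factor of skeletal and skin development. Its domain (chromosome 3, 99038256 to 99066880) was the widest of the 8 at 28.6 kb. It held 6 Suz12 sites over 15.1 kb and 7 Phf19 sites over 5.14 kb, and no site was listed in the window after depletion. A gap of 10.5 kb separated the 2 Phf19 sites at 99044217 to 99046563 from the other 5. Tbx15 thus had more Phf19 sites than Nkx2-1, Neurod2, Hand2 or Wnt1, which stayed listed.

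Wnt1 encodes a secreted ligand of the midbrain and neural crest, and its neighbour in the RefSeq gene order is another ligand gene, Wnt10b. The domain (chromosome 15, 98616351 to 98640340, 24.0 kb) had 3 Suz12 sites over 13.1 kb and 4 Phf19 sites over 3.6 kb. The Phf19 sites occupied a stretch of 4.17 kb and left 16.4 kb at the right side without Phf19. It kept 3 sites over 5.62 kb, or 23.4%. Of these, 2 lay on Phf19 and together covered 74.97% of the Phf19 bases. The third, at 98638799 to 98640167, was 14.9 kb from the nearest Phf19 site, ended 0.173 kb before the end of the domain and had 35.7% of its length on Suz12.

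**Figure D2:**
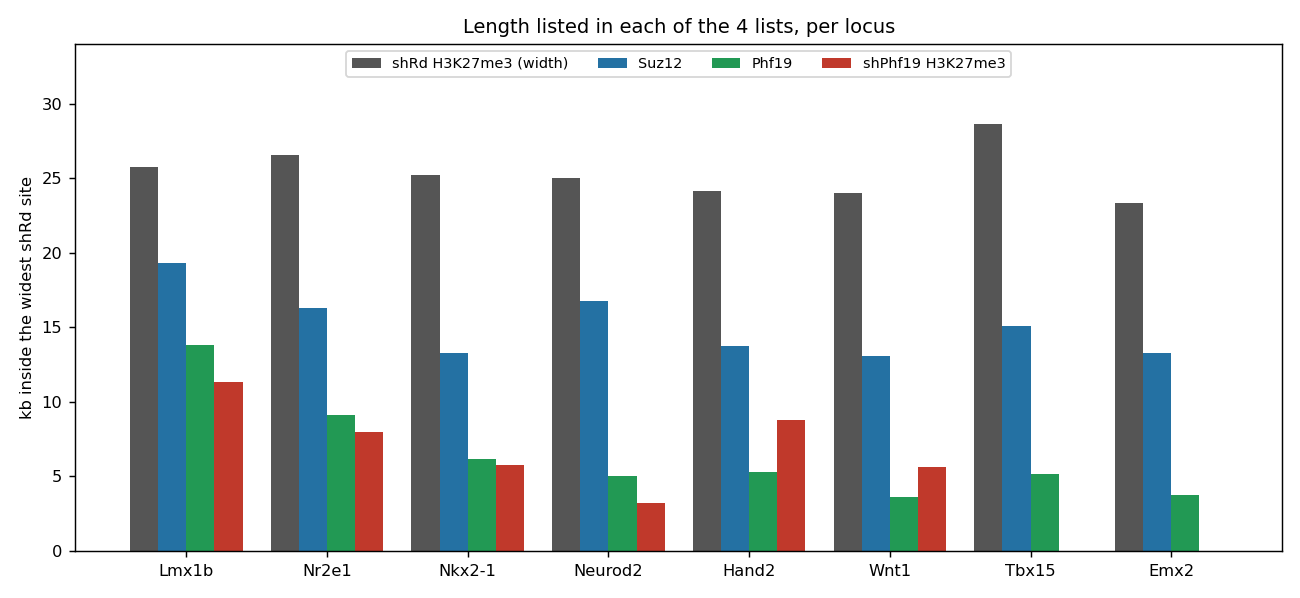
Length in kb inside the widest shRd site of each locus (bars from 0): width of that site, and the part of it covered by Suz12, Phf19 and shPhf19 H3K27me3 sites. Lmx1b has the longest Suz12, Phf19 and shPhf19 bars, and Tbx15 and Emx2 have none for shPhf19 beside Suz12 bars of 15.1 and 13.3 kb.

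Most listed H3K27me3 sites of the depleted cells at these loci shared at least 1 base with a Phf19 site of wild-type cells. In the 6 listed domains, 21 of 25 shPhf19 sites overlapped Phf19 (84.0%, 63.9 to 95.5). Over the windows it was 22 of 29 (75.9%, 56.5 to 89.7), against 55.7% of the whole shPhf19 list. By length the part on Phf19 was smaller. Of the 42.7 kb listed in the 6 domains, 23.9 kb lay on Phf19, 9.15 kb on Suz12 without Phf19 and 9.7 kb on neither. All 29 shPhf19 sites of the windows lay on a control site and 27 on Suz12, against 86.2% and 82.5% of the whole shPhf19 list. The windows were placed on control H3K27me3 domains, so the overlap with control sites largely follows from the choice of loci. For shPhf19 sites in other wide control sites these shares were not computed. Whether the Phf19 and Suz12 shares of the windows differ from the whole list apart from that choice was not tested. Seen from Phf19, 29 of the 39 sites in the listed domains overlapped a shPhf19 site (74.4%, 57.9 to 87.0). The background was 20.7% of all Phf19 sites, and 56.2% (52.6 to 59.8) of the 752 Phf19 sites in other listed control sites of at least 10 kb. The share was 64.3% without Lmx1b and 59.0% where the midpoint of the Phf19 site had to be covered, values closer to that background. The 29 overlapped Phf19 sites had a median width of 947 bp and the 10 others 501 bp, and a wider site also meets another site more easily.

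Shares of bases weight each site by its width, so they do not remove this difference in width. Of the bases on Phf19 sites in the 6 listed domains, 55.6% were still listed. The share was 18.3% of the bases with Suz12 and no Phf19 and 16.9% of the bases with neither. Bases on Phf19 had the highest share at 5 of the 6 loci, from 49.5% at Nr2e1 to 74.97% at Wnt1. Nkx2-1 was the exception, with 21.2% on Phf19, 19.1% on Suz12 alone and 26.4% on neither. Hand2 had 66.9% on Phf19 and also 35.1% on bases with neither, against 19.6% on Suz12 alone. At Neurod2 the shares were 56.9% on Phf19, 2.79% on Suz12 alone and 0% on neither. In the 139 other listed control sites of at least 10 kb with Phf19 the pooled order was the same, with 43.3%, 31.4% and 11.4%. In the 6 domains the place of Suz12 alone above neither rests on Lmx1b (42.6% against 0%) and would turn without it. Nr2e1, Neurod2 and Wnt1 had the order of Lmx1b for these classes, and Nkx2-1 and Hand2 the opposite. The loci are few and were chosen with earlier results known, so these shares carry no test.

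**Figure D3:**
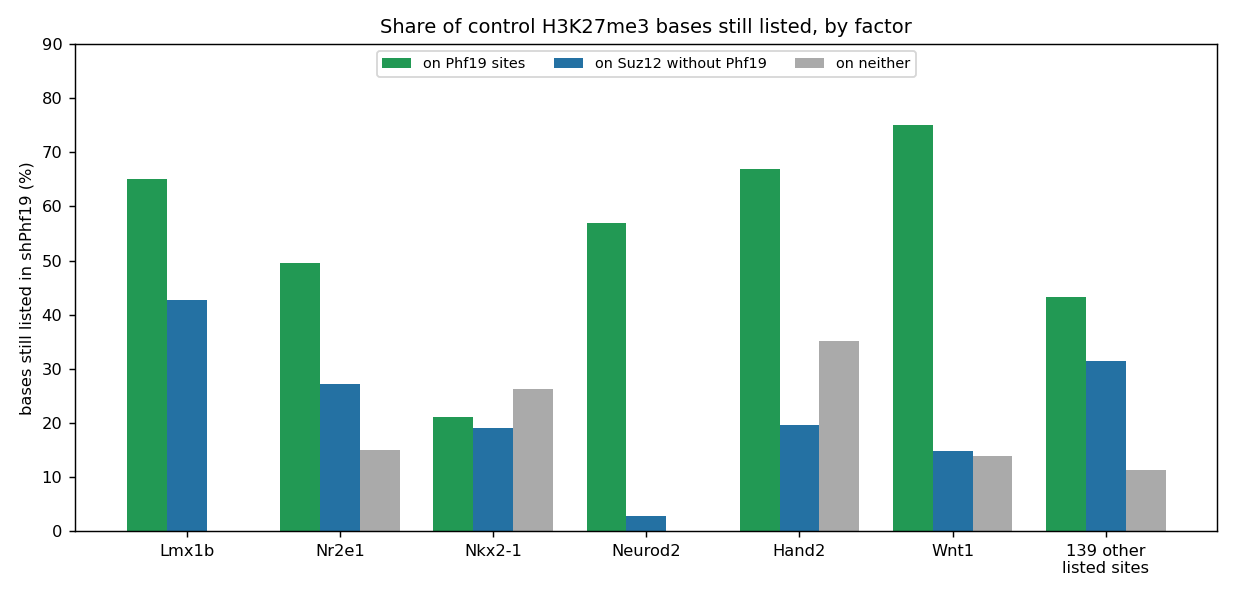
Percentage of the bases of the control H3K27me3 domain that were still listed in shPhf19 cells, for bases on Phf19 sites, on Suz12 without Phf19 and on neither, at the 6 listed loci and pooled over 139 other listed control sites of at least 10 kb with Phf19. The Phf19 bar is the tallest at every locus other than Nkx2-1.

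The 2 loci that left the list were compared with the 6 that stayed, as a description of 8 chosen loci. Width did not separate them: the listed domains spanned 24.0 to 26.5 kb, with Emx2 below and Tbx15 above that range. The number of Phf19 sites did not either, with 4 to 11 at listed loci against 7 at Tbx15 and 6 at Emx2. Phf19 sites per 10 kb had a median of 2.23 at listed and 2.51 at unlisted loci, an order that turned to 1.02 and 0.778 when Phf19 sites within 1 kb were merged. Phf19 cover was 17.9% at Tbx15 and 16.0% at Emx2, inside the range of the listed loci (15.01% to 53.7%). Of the listed loci only Wnt1 was lower, and the medians were 23.1% at listed and 17.0% at unlisted loci. Suz12 cover was 52.596% at Tbx15, just below the listed range of 52.637% to 75.2%. At Emx2 it was 56.97%, inside that range and above Nkx2-1 and Wnt1.

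The width of the widest single Phf19 site, with no sites merged, did separate them. It was 1.43 kb at Tbx15 and 1.78 kb at Emx2. At the listed loci it was 1.91 kb at Neurod2, 2.22 kb at Wnt1, 2.39 kb at Hand2, 2.62 kb at Nkx2-1, 2.77 kb at Nr2e1 and 2.83 kb at Lmx1b. This measure was picked after several others had been viewed, and it depends on how neighbouring sites were split. Tbx15 sites less than 1 kb apart run from 99057055 to 99061246. The longest such stretch at Neurod2, from 98187554 to 98190773, is shorter. Merging sites within 1 kb would therefore break the separation. Outside the windows, control sites of at least 10 kb with Phf19 showed the same order for unmerged sites, but not in this measure alone. The widest Phf19 site had a median of 1.79 kb (interquartile range 1.23 to 2.47) at the 139 that stayed listed and of 0.920 kb (0.655 to 1.62) at the 22 that did not. Phf19 cover also differed there, with a median of 32.0% (22.2 to 45.1) at listed and 19.5% (11.5 to 25.4) at unlisted sites, and so did site width, with medians of 14432 and 12002 bp. With a Phf19 site of at least 2 kb, 94.9% stayed listed (85.9 to 98.9), and with narrower ones alone 81.4% (72.4 to 88.4). Among those with at least 5 Phf19 sites the shares were 91.9% (78.1 to 98.3) and 88.2% (76.1 to 95.6). The intervals overlapped in both of these comparisons, which does not show that the shares are equal, and the differences were not tested.

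Tbx15 and Emx2 were wider than all 22 of these other unlisted sites, the widest of which had 16.9 kb. Elsewhere, 18 of 18 control sites of at least 20 kb with Phf19 were still listed (exact interval 81.5% to 100%). Of these, 2 had a narrower widest Phf19 site than Tbx15, so the width of the Phf19 site does not by itself mark the sites that left the list. Both loci were taken up because they are wide and unlisted, so their distance from the rest is no independent result.

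**Figure D4:**
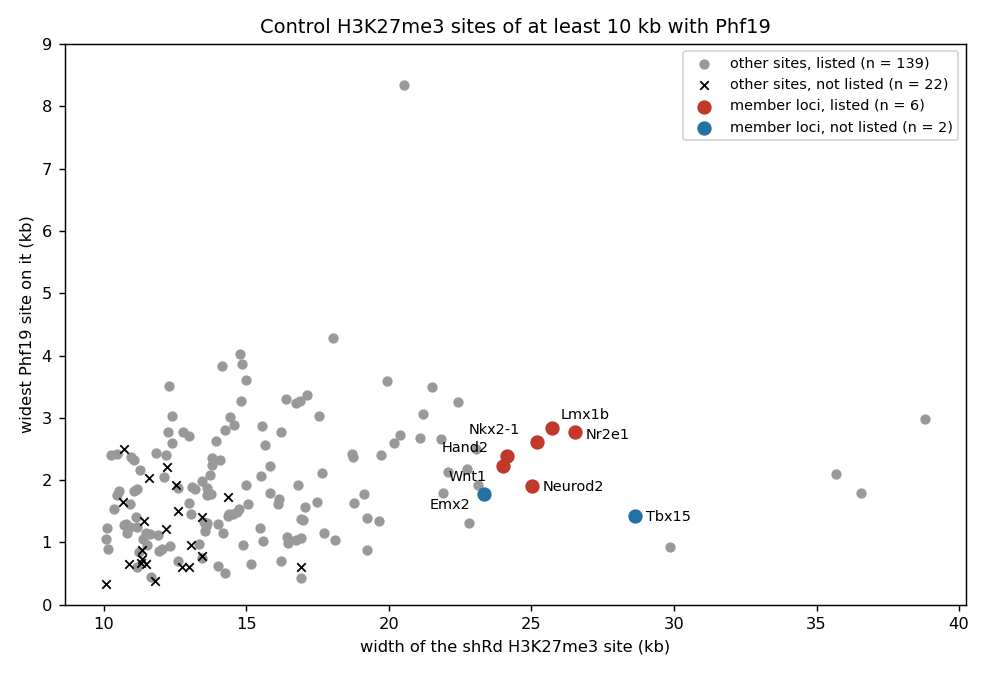
Width of the widest Phf19 site (kb) against the width of the shRd H3K27me3 site (kb) for the 8 member domains and for 161 other control sites of at least 10 kb with Phf19, by whether a shPhf19 site overlapped. Among sites of at least 20 kb, Tbx15 and Emx2 are the only 2 not listed in depleted cells, and other listed sites lie at or below their Phf19 width.

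Beside the domains, the windows held 16 other control H3K27me3 sites. Of these, 3 overlapped a shPhf19 site (18.8%, 4.05 to 45.6), against 8.96% of all control sites. All 3 were among the 6 with Phf19. They were at chromosome 10, 42332547 to 42335973, in the Nr2e1 window, at chromosome 8, 59795566 to 59800327, next to the Hand2 domain, and at chromosome 15, 98601125 to 98612631, in the Wnt1 window. The last was 11.5 kb wide and kept 2 sites over 25.9% of its length, 1 of them within its only Phf19 site of 2.67 kb. The other lay 3221 bp from the nearest Phf19 site. The shPhf19 sites on the control sites at Nr2e1 and Hand2 overlapped no Phf19 site, with gaps of 395 and 1130 bp to the nearest. None of the 10 without Phf19 was still listed (0%, 0 to 30.9), an interval that holds the 8.96% of all control sites. The widest of these was a site of 20.6 kb in the Lmx1b window, at 33423624 to 33444212, which held 2 Suz12 sites over 32.9% of its length. It lay 34.3 kb before the Lmx1b domain, which was 25.7 kb wide, held 11 Phf19 sites and kept 6 listed sites.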

How the data were processed

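The authors deposited 4 lists of sites, each with chromosome, start and end and no score. The submitters' processing notes name the tools Bowtie 0.12.7 and MACS 1.4.1 and the build mm9 but give no roles. The Phf19 list is limited to sites of both replicates, according to the design text. Which threshold and control library each list had is not stated there, and the H3K36me3, H3K36me2 and IgG samples were not analysed here.

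The 8 windows, the gene names attached to them and the lists of comparisons were chosen with earlier results of these data known. The named loci are all 8 members. Sites overlapped when they shared at least 1 base, width was end minus start, and covered length was counted per base. The widest shRd site of a window was its domain. Shares of sites carry exact Clopper-Pearson 95% intervals. With 1 library per condition no p-value was computed. Promoters came from RefSeq (GRCm38.p6), and no coordinate was converted, so the further regulator genes that had been listed were not placed. Overlap counts equalled those of bedtools 2.31.1 in 12 of 12 cases, and on simulated data 200 of 200 planted overlaps were found. The scripts used matplotlib 3.10.9, scipy 1.17.1, pandas 2.3.3, numpy 2.4.6 and Python 3.11.15. Alternatives were other definitions of overlap, all control sites of a window, merged sites and other width minimums.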

Additional observations from a re-analysis of the deposited data

How the results depend on the processing

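Of 29 alternatives, 5 of them chosen after seeing the data, 21 stayed within the interval or the spread over loci of the reported value and 8 moved beyond it. The count of 6 listed loci was the same under its 3 alternatives. The share of Phf19 sites overlapped in the listed domains was 92.3% when sites within 1 kb counted. Merging Phf19 sites within 1 kb gave 1.02 per 10 kb at listed and 0.778 at unlisted loci. Control sites outside the windows were still listed in 43.9% of cases at 5 kb or more and 92.4% at 15 kb or more. Those with Phf19 were still listed in 53.1% and 98.4%, and in 94.9% with a Phf19 site of at least 2 kb. The cause was not tested for any moved value. No paired analysis was possible because shRd and shPhf19 have 1 library each. Leaving out a Phf19 replicate was not run, since 1 list of sites common to both was used. Sites just under the peak threshold cannot be seen at an unknown depth.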

Other observations

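Control H3K27me3 sites of at least 20 kb without any Phf19 site were few: 3 lay outside the windows and none of them was listed after depletion (0%, exact interval 0 to 70.8), and the fourth is the 20.6 kb site in the Lmx1b window given above. The 7 shPhf19 sites of the windows that overlapped no Phf19 site lay between 47 bp and 14.9 kb from the nearest one, with a median of 1130 bp, and 3 of them were within 1 kb. Of the 25 shPhf19 sites in the domains, 1 had its midpoint in the first 10% of a domain, at Hand2, and 1 in the last 10%, at Wnt1. The Phf19 sites at chromosome 2, 33520896 to 33521293, and chromosome 3, 99007436 to 99007885, were the 2 of 61 that overlapped no control H3K27me3 site, and neither overlapped Suz12.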
